A study of Arabidopsis thaliana with 12 samples.

Results

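The CC-NBS and NB-ARC sensor receptors of Arabidopsis thaliana are described here from leaf messenger RNA of plants with an extra, GFP-tagged copy of the transcriptional corepressor TPR1. Members were the rows of the deposited gene table whose description holds "CC-NBS" or "NB-ARC" and does not hold "TIR", without the helper receptors of the ADR1 and NRG1 type. Of 18884 genes in the table, 39 matched the description, 0 of them held "TIR", 3 were helper receptors (AT1G33560, AT5G66900 and AT5G66910), and 36 remained. Among the 36, 19 were described as CC-NBS-LRR proteins and 17 by their NB-ARC domain. The receptors ZAR1 and RFL1 (AT1G12210), which belong to the same class, carried other descriptions and are not members.

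Leaves came from untreated plants kept on soil for 5 weeks, with 10 h of light a day, 22 °C and 60% humidity. There were 4 genotypes with 3 libraries each: the wild-type accession Col-0, pTPR1:TPR1-GFP in Col-0 (TPR1-GFP), pTPR1:TPR1-GFP sid2-1 and pTPR1:TPR1-GFP eds1-2. The transgene is driven by the promoter of TPR1, and all 3 groups other than Col-0 carry it, so no group holds sid2-1 or eds1-2 without it. The sid2-1 allele disables ICS1, the enzyme behind most pathogen-induced salicylic acid, and eds1-2 disables EDS1, a lipase-like hub of immune signalling. How many independent transformants the transgenic lines stand for is not given in the sources used here. The libraries came from 3 independent experiments per the series' design text, and pooling of plants is not stated.

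Sensor receptors of this class sit inside the cell and detect pathogen effectors, directly or through a host protein that the effector alters. The NB-ARC domain binds ATP or ADP through a P-loop, and its switch to the ATP-bound state lets the receptor assemble and trigger defence and often local cell death. Levels of these receptors are kept low in healthy leaves, in part through microRNAs such as miR472 and the secondary small interfering RNAs made by RDR6, because excess receptor can start immunity without a pathogen.

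The sequences that tie many members to one regulator are shown first. The mature miR472-3p was read from the RefSeq genome (TAIR10.1) at chr1:4182143-4182164, minus strand, and is printed 5′ to 3′ with its seed (bases 2 to 8) in capitals. Its gene, AT1G12294, lies within the member AT1G12290 on the same strand and is not in the count table, so its level was not analysed here.
miR472-3p: uUUUUCCUacuccgcccauacc

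Spliced transcripts, with their untranslated parts, were scored against the miRNA. The penalty was 1 for a mismatch and 0.5 for a G:U pair, doubled at miRNA positions 2 to 13. A site was counted up to a penalty of 4. Of the 36 members, 10 (27.8%) hold such a site, against 11 (0.06%) of the 18347 protein-coding genes in the table that were searched. The 1 other gene is AT1G12210 (RFL1). Members beyond the limit, such as RPP8, match best at a similar stretch. As members were chosen by descriptions of a shared domain, this contrast with all genes is not independent of that choice. The 10 sites run over 22 bases within coding exons, and 5 are printed because they span the range from nearly full complementarity to the limit, followed by 2 members beyond it. Capitals mark bases that do not pair with miR472 by Watson-Crick rules.
AT5G43740: ggtatgggGggagtaggaaaaa
AT1G12290: ggCatgggTggagtaggaaaaa
AT5G63020: ggtatgggTggagtaggTaaaa
SUMM2: ggCatgggTggagtaggCaaaa
AT5G05400: ggtatgggGggagtaggCaaGa
AT1G61180: ggtatgggTggTgtaggCaaaa
RPP8: ggGatgggcggTAtTggTaaaa

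The site of AT5G43740 (chr5:17566541-17566562, plus strand) departs from full pairing at 1 position and has a penalty of 1. That of AT1G12290 (chr1:4180683-4180704, minus strand) has a penalty of 1.5, that of SUMM2 (chr1:4176992-4177013, minus strand) 3.5 and that of AT5G05400 (chr5:1599805-1599826, minus strand) 4. AT1G61180 (chr1:22552020-22552041, plus strand) scored 4.5, just outside the limit, with AT1G61190, AT1G61300 and AT1G61310. RPP8 (chr5:17466064-17466085, minus strand) scored 9. A match in these letters is a description and shows no cleavage in these leaves.

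Promoters were compared because most members moved together. In the 300 bases from 250 before to 50 after the annotated start, the core of the W-box, TTGAC on either strand (GTCAA), occurred in 27 of 36 members (75%) and in 50.9% of 18346 promoters of the table's genes. It occurred at least 2 times in 15 members (41.7%) and in 18.3% of all. Some of these promoters are near copies with the same cores, so the members are not independent of each other in these counts. Such copies are those of AT1G58807, AT1G58848 and AT1G59218, and those of AT1G62630 and AT1G63360. The palindrome ACGT, the core of other plant motifs, was in 17 members (47.2%) and in 50.3% of all. WRKY transcription factors are known to bind W-boxes, and the presence of the letters shows no binding. The 250 bases before the start are printed for AT1G15890, with 3 cores in capitals, and for CAR1, which has none and is among the members that rose most.
AT1G15890 (chr1:5461059-5461308, plus strand): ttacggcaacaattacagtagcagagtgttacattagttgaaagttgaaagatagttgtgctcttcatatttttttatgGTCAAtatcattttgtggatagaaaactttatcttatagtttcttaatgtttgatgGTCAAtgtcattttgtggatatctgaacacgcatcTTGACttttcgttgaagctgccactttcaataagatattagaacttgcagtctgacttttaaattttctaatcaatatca
CAR1 (chr1:18583714-18583963, plus strand): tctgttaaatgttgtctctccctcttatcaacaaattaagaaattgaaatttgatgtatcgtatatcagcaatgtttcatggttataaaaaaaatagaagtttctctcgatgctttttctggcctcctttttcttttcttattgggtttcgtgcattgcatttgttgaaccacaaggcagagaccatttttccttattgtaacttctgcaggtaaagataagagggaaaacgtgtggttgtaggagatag

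The members fall into groups by protein sequence. Joining members that share at least 50% identity over at least 60% of the shorter protein gave a SUMM2 group of 11, an RPP8-RPP7 group of 11, a group of 3 around AT5G43740, and 11 members outside them. Of the miR472 sites, 6 lie in the SUMM2 group, 3 in the AT5G43740 group (all of it), 1 in AT5G05400 and 0 in the RPP8-RPP7 group. All 11 members of the RPP8-RPP7 group have 3 coding exons, while 18 of the 36 members have a single one. The proteins run from 727 to 1424 residues with a median of 900. On the chromosomes, 21 members lie on chromosome 1, 4 on chromosome 3, 3 on chromosome 4 and 8 on chromosome 5, and 17 have another member within 20 kb.

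Some values are uncertain for technical reasons. AT1G58848 and AT1G59218 encode identical proteins of 1049 residues, and AT1G58807 is identical to AT1G59124, which is not in the table, so reads of these genes may be split between copies. In 16 members the annotated gene overlaps a neighbour, and since strand use in counting is not stated, reads of overlapping genes cannot be told apart. This touches AT1G12290 and SUMM2, which overlap each other, and LOV1, RPM1, RPP7, RPP8, RPP13, RPS2, AT1G53350, AT1G63350, AT3G14460, AT3G14470, AT5G43730, AT5G43740, AT5G48620 and AT5G63020.

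The 12 libraries held 19628974 to 32018583 counts, of which 0.0823 to 0.19% fell on members. All 36 passed the filter on low counts, and 1 member had no count in 1 library. Levels are CPM, counts scaled to a common library size by TMM factors, and a gene was called where edgeR's quasi-likelihood test gave a Benjamini-Hochberg adjusted p under 0.05 over 18877 genes tested. Each p-value sets a difference against the spread between libraries of a genotype (3 each), estimated from all 12 libraries in a single fit. TPR1 read 68.3 to 74.1 CPM in Col-0 and 1539 to 1748 CPM in TPR1-GFP. In both other lines it lay below every TPR1-GFP library, at 776 to 1305 CPM with sid2-1 and 990 to 1327 CPM with eds1-2. EDS1A read 13.5 to 16 CPM in the eds1-2 line and 29.6 to 173 CPM in all others. The sid2-1 point mutation cannot be read from ICS1 counts. ICS1 was at 132 to 157 CPM in the sid2-1 line and 208 to 368 CPM in TPR1-GFP. PR1, a salicylic acid marker, read 0.304 to 1.46 CPM in the sid2-1 line against 1092 to 2272 CPM in TPR1-GFP. It also read 0.953 to 4.62 CPM in the eds1-2 line and 1.58 to 49.2 CPM in Col-0. A low PR1 level thus does not single out sid2-1. Mesophyll markers gave the highest sums in every library (18302 to 50218 CPM), and root markers were not in the table.

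Within Col-0 the levels of the members differed between the libraries. The summed CPM of the 36 members was 1310, 1142 and 926 in Col-0 replicates 1, 2 and 3. Replicate 1 was the highest of the 3 in 31 members and replicate 3 the lowest in 29, whereas over all genes these shares were 32.5 and 35.8%. ICS1 read 49.9, 26.6 and 10.3 CPM in the same libraries. The sums were 1546, 1629 and 1761 CPM in TPR1-GFP. Plants with sid2-1 gave 1330, 1366 and 1309 CPM, and those with eds1-2 gave 1077, 1178 and 1140 CPM. The TPR1-GFP sums thus lie above those of all other libraries, and the eds1-2 sums lie within the range of Col-0.

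Per kilobase of exon, the members differed widely. RPP7 was the most abundant over the 12 libraries at 54.9 CPM per kb, ahead of RPP8 at 46.7 and its relative AT5G48620 at 33.1. RPP7 and RPP8 give resistance to the downy mildew oomycete Hyaloperonospora arabidopsidis. The least abundant were AT1G59218 at 0.0939 CPM per kb, AT1G58410 at 0.141 and AT4G27220 at 0.223. The level of AT1G59218 is uncertain because of its identical copy AT1G58848 in the same cluster.

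**Figure D1:**
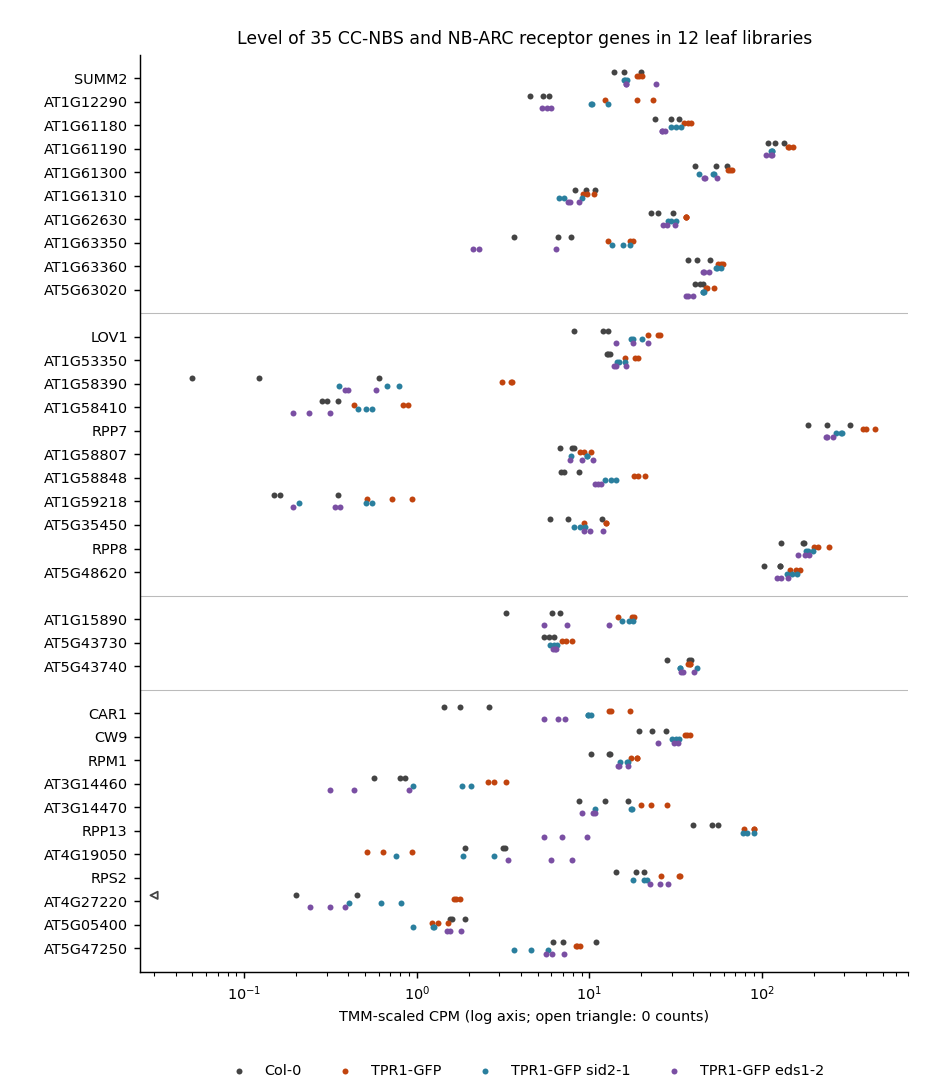
TMM-scaled CPM (log axis) of 35 of the 36 members in each of 12 libraries, as 3 points per genotype in 4 colours, with grey lines between the SUMM2 group, the RPP8-RPP7 group, the AT5G43740 group and the other 11 members. TPR1-GFP points lie furthest right for most members; RPP13 in the eds1-2 line and AT4G19050 in TPR1-GFP lie apart to the left, and the open triangle is the AT4G27220 library with 0 counts.

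TPR1-GFP had the highest mean of the 4 genotypes in 34 of 36 members (94.4%), against 32% of all genes. The 2 exceptions, AT4G19050 and AT5G05400, were highest in the eds1-2 line (20.7% of all genes) and in Col-0 (29.9%). The order TPR1-GFP, sid2-1 line, eds1-2 line, Col-0 held for 16 members (44.4%, all genes 9.72%), and TPR1-GFP, sid2-1 line, Col-0, eds1-2 line for 9 (25%, all genes 11.3%). In the test over all 4 genotypes 28 of 36 members were called, where 67.1% of all genes were. In 6 members no pairwise comparison was called: SUMM2, AT1G58807, AT1G61310, AT5G05400, AT5G35450 and AT5G43740.

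In TPR1-GFP, 26 members rose against Col-0 and 1 fell, while 27.5% of all genes rose and 26.4% fell (53.9% either way). Of these, 11 rose and 1 fell by at least 1 on the log2 scale (12 and 10.1% of all genes). The median log2 change of the members was 0.48, beside 0.01 over all genes tested. In 29 members all 3 TPR1-GFP libraries lay above all 3 of Col-0 (31.1% of all genes), and in 2 they lay below (30%). With library totals as the only scaling, 32 members rose and 1 fell, and the median of all genes moved to 0.26. Fewer cells that express a gene and less of its RNA per cell cannot be told apart in these whole leaves. The 4 mesophyll markers all fell in TPR1-GFP (summed CPM of 18302 to 22897 against 40011 to 50218 in Col-0). Of 5 guard cell and epidermis markers 3 fell, with a median log2 change of -0.90 over the 5 (summed CPM of 114 to 137 against 177 to 251). The part of both in the members' rise was not tested. With upper-quartile scaling 23 members rose and 1 fell.

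**Figure D2:**
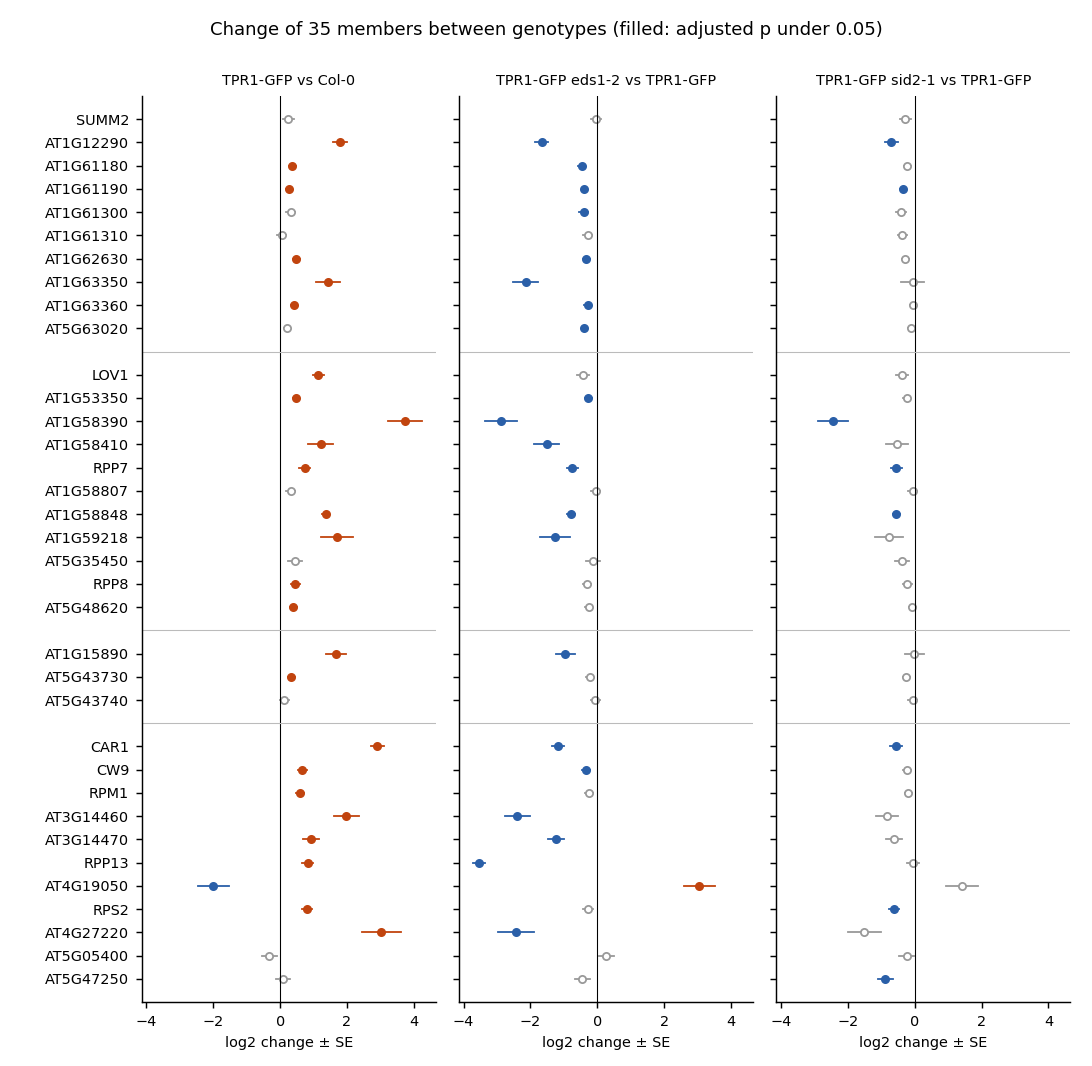
Log2 change with its standard error for 35 of the 36 members in 3 comparisons, with filled points for calls (red higher, blue lower in the first genotype) and open points for members not called. Most points lie right of 0 in TPR1-GFP against Col-0 and left of 0 in the eds1-2 line against TPR1-GFP, with AT4G19050 opposite in both.

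CAR1, which recognises effectors of the AvrE family of Pseudomonas syringae, read 2.60, 1.44 and 1.78 CPM in Col-0 and 13, 17.3 and 13.3 in TPR1-GFP. The groups were far apart, with a fold of 7.48 and a log2 change of 2.91 (SE 0.20, adjusted p = 2.35e-06, edgeR). AT1G58390, of the RPP8-RPP7 group, read 0.6, 0.0497 and 0.121 CPM in Col-0 and 3.56, 3.09 and 3.50 in TPR1-GFP. Its log2 change of 3.73 (SE 0.52, adjusted p = 0.000132) was the highest among the members and reached 5.17 without Col-0 replicate 1, the highest of the 3 Col-0 libraries for this gene. AT4G27220 rose by a log2 of 3.02 (SE 0.58), from 0.450, 0.199 and 0 CPM to 1.69, 1.78 and 1.63. Without Col-0 replicate 1 that value was 4.16 and without replicate 3 it was 2.37, so its size rests on few counts.

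AT3G14460 read 0.850, 0.795 and 0.566 CPM in Col-0 and 2.59, 2.81 and 3.30 in TPR1-GFP, a fold of 3.93. AT1G12290, the member that overlaps the miR472 gene and holds a site with a penalty of 1.5, read 5.80, 5.37 and 4.53 CPM in Col-0 and 12.3, 18.8 and 23.2 in TPR1-GFP. The groups did not overlap in either gene, and the log2 changes were 1.98 (SE 0.37) and 1.79 (SE 0.21, adjusted p = 4.09e-05). In the TPR1-GFP libraries AT1G12290 was the more scattered of the pair, with an SD of 5.51 around a mean of 18.1 CPM (n = 3).

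RPS2 and RPM1 both guard RIN4, a membrane protein that P. syringae effectors cleave or cause to be phosphorylated. RPS2 read 20.8, 18.5 and 14.2 CPM in Col-0 and 26.1, 33.3 and 33 in TPR1-GFP, a fold of 1.73 (log2 0.79, SE 0.15, adjusted p = 0.000976). RPM1 read 13.2, 10.1 and 12.9 CPM in Col-0 and 17.3, 18.8 and 18.8 in TPR1-GFP, a fold of 1.51 (adjusted p = 0.000794). The libraries of the genotypes did not overlap in either gene.

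SUMM2, which monitors the MEKK1-MKK1/MKK2-MPK4 cascade, read 19.9, 15.9 and 13.8 CPM in Col-0 and 20.3, 18.9 and 19.5 in TPR1-GFP. Its groups overlapped, and the log2 change of 0.24 was not called (adjusted p = 0.21).

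Among the downy mildew receptors, RPP13 read 55.4, 51.1 and 39.8 CPM in Col-0 and 78.5, 90.0 and 89.9 in TPR1-GFP, a fold of 1.77. RPP7 read 322, 238 and 186 CPM against 383, 398 and 454, a fold of 1.66. RPP8 read 174, 174 and 129 CPM against 199, 211 and 243, a fold of 1.37. All 3 were called, with adjusted p of 0.00173, 0.00268 and 0.0102. LOV1, of the RPP8-RPP7 group, rose by a fold of 2.20 (log2 1.15, SE 0.18, adjusted p = 0.000271), from 12.8, 11.9 and 8.08 CPM to 22.0, 25.5 and 24.8.

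By sequence group, 7 of 11 members rose in the SUMM2 group with a median log2 change of 0.36, and 9 of 11 in the RPP8-RPP7 group with a median of 0.73. Over all genes 27.5% rose and 26.4% fell. In the AT5G43740 group 2 of 3 rose, AT1G15890 by a log2 of 1.66 and AT5G43730 by 0.34. Of the 11 others 8 rose and 1 fell, with a median of 0.79. The identical pair AT1G58848 and AT1G59218 rose by log2 values of 1.36 and 1.70, at means of 19.4 and 0.722 CPM in TPR1-GFP, and can exchange reads. Of the 10 members with a miR472 site 6 rose (median log2 0.36), and of the 26 without 20 rose and 1 fell (median 0.70); the difference was not tested. Of the 27 members with a W-box core 21 rose (median 0.48), and of the 9 without 5 rose (median 0.45).

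Of the 27 calls, 22 held whichever library was left out. The count of calls was 30 without Col-0 replicate 1 and 22 without Col-0 replicate 3, the highest and lowest libraries of the wild type. Calls lost included those of AT1G58410 (without Col-0 replicate 3 or TPR1-GFP replicate 2, adjusted p up to 0.0654), AT1G61180 (without Col-0 replicate 3, 0.0529), AT1G61190 (without Col-0 replicate 2 or 3 or TPR1-GFP replicate 3, up to 0.0984) and AT5G43730 (without Col-0 replicate 3 or TPR1-GFP replicate 2 or 3, up to 0.0796).

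**Figure D3:**
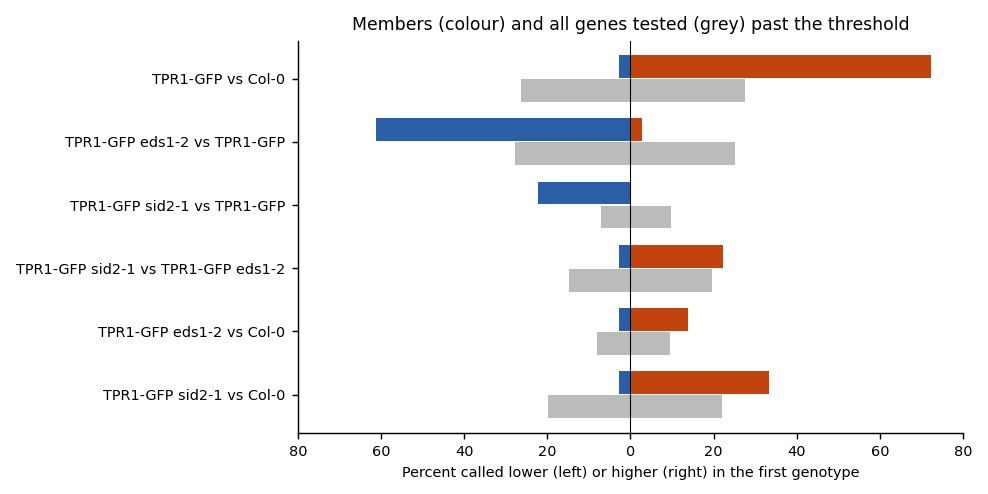
Percent of the 36 members (coloured bars) and of all genes tested (grey bars) called higher (right) or lower (left) in the first genotype of each of 6 comparisons. In TPR1-GFP against Col-0 72.2% of members were higher and 2.78% lower, and in the eds1-2 line against TPR1-GFP 61.1% were lower.

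The comparison of TPR1-GFP eds1-2 with TPR1-GFP asks how far the members' levels in the transgenic line go with EDS1. In the eds1-2 line 22 members fell and 1 rose, while 27.7% of all genes fell and 25.2% rose (52.9% either way). By at least 1 on the log2 scale 10 fell and 1 rose (9.89 and 10.3% of all genes). The median log2 change was -0.40, beside -0.03 over all genes. In 28 members all eds1-2 libraries lay below all TPR1-GFP libraries (32.2% of all genes). The 4 mesophyll markers rose (summed CPM of 32444 to 40571), and vascular markers summed to 370 to 414 CPM against 227 to 251 in TPR1-GFP. The log2 change of TPR1 itself was -0.54 (SE 0.17, adjusted p = 0.0199). The part of these in the members' fall was not tested. With upper-quartile scaling 16 members fell and 1 rose, and 59.7% of all calls were then higher in the eds1-2 line, where TMM gave 47.6%. With library totals as the only scaling 30 fell and 1 rose, and 32.6% of all calls were higher.

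RPP13 changed most. It read 5.49, 9.71 and 6.96 CPM in the eds1-2 line, against 78.5, 90.0 and 89.9 in TPR1-GFP and 55.4, 51.1 and 39.8 in Col-0. The eds1-2 libraries lay far below every other library, 11.7-fold below TPR1-GFP (log2 -3.54, SE 0.19, adjusted p = 3.29e-07). RPP13 is also the only member in the stretch AT3G40000 to AT3G55000 around EDS1, 622 kb from EDS1A in TAIR10.1. The eds1-2 allele was isolated in the accession Landsberg erecta, and RPP13 is known to vary strongly in sequence between accessions. An effect of EDS1 on RPP13, a different RPP13 allele linked to eds1-2, and reads of such an allele that fail to align to the Col-0 genome cannot be told apart here. Without RPP13 21 members fell and 1 rose.

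AT1G58390 fell from 3.56, 3.09 and 3.50 CPM to 0.578, 0.401 and 0.381 (log2 -2.89, SE 0.47, adjusted p = 0.000396), which overlaps its Col-0 libraries. AT4G27220 fell by 2.43 on the log2 scale and AT3G14460 by 2.39. AT1G63350, of the SUMM2 group, read 12.9, 17.2 and 18.0 CPM in TPR1-GFP and 2.12, 6.37 and 2.29 in the eds1-2 line. The groups did not overlap, and the log2 change of -2.14 (SE 0.38, adjusted p = 0.000729) was -2.86 without eds1-2 replicate 2, the library that stood above the other two.

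AT1G12290 fell by 1.67 on the log2 scale to 5.34, 6.01 and 5.67 CPM, overlapping its Col-0 libraries. CAR1 fell by 1.19 (SE 0.18, adjusted p = 0.000212) to 6.55, 7.17 and 5.43 CPM, still above all 3 Col-0 libraries. RPP7 read 237, 236 and 259 CPM, a fall of 0.76 on the log2 scale (adjusted p = 0.00218).

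Several well known receptors were not called here. RPS2 read 22.5, 25.8 and 28.4 CPM (adjusted p = 0.146), RPM1 14.6, 14.9 and 16.7 (0.0726), RPP8 162, 187 and 176 (0.0552), LOV1 14.2, 21.7 and 17.8 (0.0548) and SUMM2 16.4, 24.1 and 16.3 (0.822). The libraries of RPS2 and SUMM2 overlapped with TPR1-GFP, while those of RPM1, RPP8 and LOV1 lay below it. LOV1 passed the threshold in 3 of the fits that left out a library (Col-0 replicate 1, Col-0 replicate 3 or eds1-2 replicate 2), RPP8 in 2 (Col-0 replicate 3 or TPR1-GFP replicate 1) and RPM1 in 1 (Col-0 replicate 2).

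AT4G19050 was called in the opposite direction to the other called members in the comparisons of TPR1-GFP with Col-0 and of the eds1-2 line with TPR1-GFP. It read 3.25, 1.89 and 3.15 CPM in Col-0, 0.934, 0.516 and 0.637 in TPR1-GFP, 0.754, 1.86 and 2.80 in the sid2-1 line and 7.89, 3.38 and 5.96 in the eds1-2 line. It was the 1 member that fell in TPR1-GFP (log2 -2.0, SE 0.47, adjusted p = 0.004) and the 1 that rose in the eds1-2 line against TPR1-GFP (log2 3.05, SE 0.46, adjusted p = 0.000252). AT5G05400 also lay lower in TPR1-GFP than in Col-0 (log2 -0.32, adjusted p = 0.232) and higher in the eds1-2 line than in TPR1-GFP (0.26, adjusted p = 0.33), without being called. AG, a flower gene, also read 2.00 to 2.26 CPM in the eds1-2 line against 0.0796 to 0.95 CPM elsewhere. AG was the only 1 of 3 flower markers in the table, and its part in the value of AT4G19050 was not tested.

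By sequence group 9 of 11 members fell in the SUMM2 group (median log2 -0.39), 6 of 11 in the RPP8-RPP7 group (-0.43) and 1 of 3 in the AT5G43740 group (-0.23). Of the 11 others 6 fell and 1 rose (-0.45). Over all genes 27.7% fell and 25.2% rose. Of the 10 members with a miR472 site 6 fell. Of the 23 calls 16 held whichever library was left out. The count was 16 without eds1-2 replicate 1 and 26 without Col-0 replicate 3. AT1G15890 was lost without eds1-2 replicate 1 or 3, with adjusted p up to 0.0605, and AT1G62630 without these or TPR1-GFP replicate 2 (up to 0.0806). AT1G53350 (up to 0.13), AT1G59218 (0.123), AT1G61300 (0.0895) and AT1G63360 (0.0834) were each lost without 4 or 5 of the 6 libraries compared. CW9 (adjusted p = 0.0424) was lost in 9 of 12 such fits, with values up to 0.168.

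The comparison of TPR1-GFP sid2-1 with TPR1-GFP asks the same of ICS1. In the sid2-1 line 8 members fell and 0 rose, beside 7.14% of all genes that fell and 9.7% that rose (16.8% either way). By at least 1 on the log2 scale 1 member fell and 0 rose (1.59 and 3.21% of all genes). The median log2 change was -0.28 for members and 0.00 for all genes. Of the members that did not pass, 27 of 28 also lay under 0 or at it, and in 21 members all sid2-1 libraries lay below TPR1-GFP (19.8% of all genes) and in 0 above (20.1%). DESeq2 called 1 member higher and 10 lower. The mesophyll markers summed to 25118 to 27004 CPM, 3 of 4 having risen, and the log2 change of TPR1 itself was -0.57 (SE 0.17, adjusted p = 0.0433). The part of these in the members' fall was not tested.

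AT1G58390 fell to 0.352, 0.784 and 0.675 CPM, 5.61-fold below TPR1-GFP (log2 -2.45, SE 0.45, adjusted p = 0.00526). AT1G58848 fell from 18.0, 19.1 and 21.1 CPM to 14.3, 13.4 and 12.2 (log2 -0.55, SE 0.11, adjusted p = 0.00768). These were the only 2 of the 8 calls that held whichever library was left out. RPS2 fell from 26.1, 33.3 and 33 CPM to 17.8, 21.4 and 20.6 (log2 -0.63, SE 0.15, adjusted p = 0.0169), overlapping Col-0. Without TPR1-GFP replicate 2 or 3 or sid2-1 replicate 1 the RPS2 call was lost, with adjusted p up to 0.0714.

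AT5G47250, one of 4 members with their lowest mean in the sid2-1 line, read 10.9, 7.01 and 6.14 CPM in Col-0, 8.37, 8.80 and 8.48 in TPR1-GFP, 4.57, 3.63 and 5.74 in the sid2-1 line and 6.06, 7.13 and 5.62 in the eds1-2 line. The fall against TPR1-GFP was 0.87 on the log2 scale (SE 0.22, adjusted p = 0.0196), and the call was lost without TPR1-GFP replicate 2 or 3 or sid2-1 replicate 1 or 2 (up to 0.08). AT1G12290 (log2 -0.70, adjusted p = 0.0308) was lost without the same 4 libraries (up to 0.127), and its libraries overlapped with TPR1-GFP. AT1G61190 (-0.35, 0.0216) was lost without any of 5 (up to 0.0824), RPP7 (-0.55, 0.038) in 6 of 12 fits (up to 0.134) and CAR1 (-0.55, 0.0479) in 7 of 12 (up to 0.2).

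RPP13 read 90.17, 77.4 and 82.1 CPM in the sid2-1 line, level with TPR1-GFP (log2 -0.05, SE 0.17, adjusted p = 0.862). AT1G15890 read 17.0, 17.9 and 15.4 CPM against 14.6, 17.6 and 18.2 in TPR1-GFP (log2 0.00, SE 0.28). AT1G63350 read 17.3, 15.6 and 13.4 CPM against 12.9, 17.2 and 18.0 (log2 -0.05, SE 0.34). The libraries of the genotypes overlapped in all 3 genes, and changes larger than these errors can also have been missed. AT4G27220 lay lower in all 3 sid2-1 libraries (0.804, 0.619 and 0.405 CPM) but was not called (adjusted p = 0.055). The call depended on the settings: AT4G27220 passed with DESeq2 (adjusted p = 0.0164), with only the 2 groups in the fit (0.0108), with library totals as the only scaling (0.0429) and without Col-0 replicate 1 (0.027) or 3 (0.011), and the authors' deposited table gives 0.0391.

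**Figure D4:**
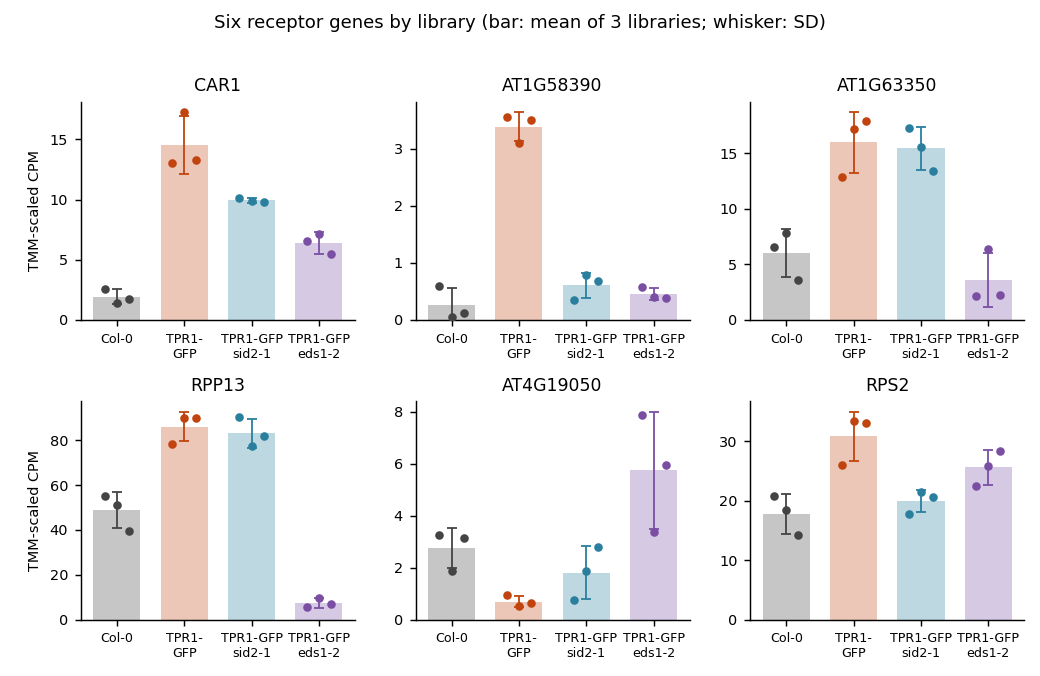
TMM-scaled CPM of 6 members in each library (points), with the mean of 3 libraries (bar, axis from 0) and the SD (whisker) for each of 4 genotypes. RPP13 and AT1G63350 were low in the eds1-2 line and level with TPR1-GFP in the sid2-1 line, AT1G58390 was low in both, RPS2 was lower in the sid2-1 line, and AT4G19050 was highest in the eds1-2 line.

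Against TPR1-GFP 6 members fell in both lines, 16 were called in the eds1-2 line alone and 2 (RPS2 and AT5G47250) in the sid2-1 line alone, beside 5.47, 21.4 and 1.52% of all genes. The split depends on the libraries: the sid2-1 line had 2 calls in place of 8 without TPR1-GFP replicate 2 or without replicate 3. These counts share the TPR1-GFP libraries, so the difference between the lines was tested directly. Of the 36 members, 8 were higher in the sid2-1 line than in the eds1-2 line and 1 lower, beside 19.5 and 14.9% of all genes (34.4% either way), so the members' 22.2% higher lies near the background. By at least 1 on the log2 scale 3 were higher and 1 lower (8.49 and 4.28% of all genes). Without RPP13 7 were higher and 1 lower. Of the markers, 3 of 4 mesophyll genes (median log2 -0.49), 3 of 4 vascular genes (median -0.69), 2 of 5 guard cell and epidermis genes (median -0.04) and AG (-3.81) were lower in the sid2-1 line, and their part in the result was not tested. The median log2 difference was 0.14 for members and 0.00 for all genes.

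The members higher in the sid2-1 line than in the eds1-2 line included RPP13 (log2 3.49, SE 0.19, adjusted p = 4.33e-07), AT1G63350 (2.09, SE 0.38, 0.00173), AT3G14460 (1.57, 0.00995), AT1G12290 (0.96, 0.00408), AT1G15890 (0.95, 0.025), CAR1 (0.64, 0.0172) and AT5G63020 (0.28, 0.0146). The value of RPP13 carries the limit given above, its linkage to EDS1. AT1G63350 had a log2 difference of up to 2.80 without eds1-2 replicate 2. AT4G19050 was lower (log2 -1.63, SE 0.42, adjusted p = 0.0117), and this call was lost without eds1-2 replicate 1 (0.0507). RPS2 was lower in the sid2-1 line in all libraries, at 17.8 to 21.4 against 22.5 to 28.4 CPM, but not called (adjusted p = 0.0843). Of the 9 calls 4 held whichever library was left out (RPP13, AT1G63350, AT3G14460 and AT1G12290). AT1G15890 was lost without sid2-1 replicate 1 or 2 or eds1-2 replicate 1 or 3 (up to 0.091), CAR1 without sid2-1 replicate 1 or eds1-2 replicate 3 (up to 0.074) and AT5G63020 without eds1-2 replicate 1 or 3 (up to 0.0621). The count of calls was 5 without eds1-2 replicate 1, 6 without eds1-2 replicate 3 and 13 without Col-0 replicate 3.

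Each line was also set against Col-0. In the eds1-2 line 5 members were higher and 1 lower, beside 9.48 and 8.02% of all genes (17.5% either way). By at least 1 on the log2 scale 1 was higher and 1 lower (4.89 and 2.95% of all genes). The one lower is RPP13, with the same limit of its linkage to EDS1. Of the markers, 2 of 4 vascular genes (median log2 0.46) and AG (1.76) were higher than in Col-0. Lower were 1 of 4 mesophyll genes and 1 of 5 guard cell and epidermis genes. The part of these in the members' levels was not tested. CAR1 was 3.29-fold higher (log2 1.72, SE 0.20, adjusted p = 0.000234), AT1G58848 1.49-fold (0.00553), LOV1 1.64-fold (0.0176), RPS2 1.43-fold (0.0335) and RPM1 1.27-fold (0.0493), and RPP13 was 6.60-fold lower (log2 -2.72, SE 0.19, adjusted p = 4.19e-06). CAR1, AT1G58848 and RPP13 held whichever library was left out. LOV1 was lost without eds1-2 replicate 2 (0.0669), RPS2 without Col-0 replicate 2 or 3 or eds1-2 replicate 2 or 3 (up to 0.119), and RPM1 in 11 of 12 fits (up to 0.164). The count was 9 without Col-0 replicate 1, and 4 without Col-0 replicate 2, eds1-2 replicate 2 or eds1-2 replicate 3.

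Against Col-0 12 members were higher in the sid2-1 line and 1 lower, beside 22.1 and 19.9% of all genes (42.1% either way). By at least 1 on the log2 scale 5 were higher and 0 lower (10.3 and 4.11% of all genes). All 4 mesophyll markers (median log2 -0.73), 2 of 5 guard cell and epidermis markers and AG (-2.05) were lower than in Col-0. Of 4 vascular markers 1 was higher. The part of these in the members' levels was not tested. CAR1 was 5.12-fold higher (log2 2.36, SE 0.20, adjusted p = 1.17e-05), AT1G15890 3.13-fold (0.00141), AT1G63350 2.57-fold (0.0118), AT3G14460 2.19-fold (0.0297), AT1G12290 2.12-fold (0.00184), AT1G58848 1.76-fold (0.000247), RPP13 1.71-fold (0.00413), LOV1 1.69-fold (0.00578), CW9 1.35-fold (0.0179), RPM1 1.33-fold (0.0113), AT1G63360 1.29-fold (0.0124) and AT5G48620 1.25-fold (0.0312). AT5G47250 was lower (log2 -0.78, adjusted p = 0.0145), a call lost without Col-0 replicate 1 or sid2-1 replicate 2 (up to 0.0603). Of the 13 calls 9 held whichever library was left out. AT3G14460 was lost without Col-0 replicate 2 or 3 or sid2-1 replicate 2 or 3 (up to 0.106), AT5G48620 without Col-0 replicate 3 or sid2-1 replicate 1 or 2 (up to 0.122) and CW9 without Col-0 replicate 3 or sid2-1 replicate 1 (up to 0.0736). With library totals as the only scaling 19 members were higher and 1 lower, and the median of all genes moved to 0.17.

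CAR1 levels were 9.79 to 10.1 CPM with sid2-1 and 5.43 to 7.17 CPM with eds1-2, above the 1.44 to 2.60 CPM of Col-0 in both. AT1G58390 read 0.352 to 0.784 CPM and 0.381 to 0.578 CPM there, overlapping the 0.0497 to 0.6 CPM of Col-0 in both, and was not called against Col-0 in either (adjusted p = 0.098 and 0.376). This rests on Col-0 replicate 1, without which AT1G58390 was called higher in both, with log2 changes of 2.72 (adjusted p = 0.00292) in the sid2-1 line and 2.29 (0.0206) in the eds1-2 line.

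Proteins that sensor receptors guard or depend on were followed in a list of 22 genes, all in the table. In TPR1-GFP 15 rose and 1 fell against Col-0 (27.5 and 26.4% of all genes), with a median log2 change of 0.38. In the eds1-2 line 14 fell and 1 rose against TPR1-GFP (27.7 and 25.2% of all genes). In the sid2-1 line 5 fell against TPR1-GFP (7.14% of all genes). The kinase PBL2, the decoy that ZAR1 watches with a pseudokinase, rose most, from 10.1 to 16.9 CPM in Col-0 to 43.4 to 75.5 CPM in TPR1-GFP (log2 2.19, SE 0.29, adjusted p = 0.000126), and read 5.49 to 13.1 CPM in the eds1-2 line. SGT1A, a cochaperone of receptor assembly, rose by a log2 of 1.25 and CRCK3, the kinase that SUMM2 guards, by 1.05. RIN4, guarded by RPS2 and RPM1, rose by 0.24 (adjusted p = 0.0494). RDR6, which makes the secondary small RNAs from miR472 targets, was the 1 gene that fell (log2 -0.41, SE 0.10, adjusted p = 0.00559), from 38.2 to 42.8 CPM in Col-0 to 28.9 to 31.6 in TPR1-GFP. RDR6 stayed at 24.6 to 29.1 CPM in the sid2-1 line and read 35.9 to 45.9 CPM in the eds1-2 line, where it was the 1 gene of the list that rose against TPR1-GFP. RDR6 (AT3G49500) lies in the stretch AT3G40000 to AT3G55000 around EDS1. As with RPP13, an effect of EDS1 and a different allele linked to eds1-2 cannot be told apart here.

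The members' changes can be read beside those of other intracellular receptors in the same libraries, which share all controls. All 5 helper receptors rose in TPR1-GFP (median log2 1.34, from 0.51 for NRG1.1 to 2.0 for ADR1), and all 5 fell in the eds1-2 line against TPR1-GFP. Of 81 genes described as TIR-NBS receptors 70 rose and 2 fell in TPR1-GFP (median log2 1.15). Over all genes 27.5% rose and 26.4% fell in TPR1-GFP, and 27.7% fell in the eds1-2 line against TPR1-GFP. In the sid2-1 line against the eds1-2 line 42 of the 81 were higher and 3 lower (median 0.45). Of the 36 members 8 were higher and 1 lower there (median 0.14), beside 19.5 and 14.9% of all genes. These differences between receptor classes were not tested.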

How the data were processed

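Per the labels, polyadenylated RNA from leaves was sequenced in 12 libraries. Per the submitters' processing notes, TopHat2, HTSeq and limma were used on TAIR10, with no versions or strand given. The authors deposited 1 table with read counts for each gene in each library, log2 CPM values per library, and for 3 comparisons a log2 fold change with an adjusted p-value (FDR). The lowest gene sum in it is 101 counts, so genes below that were not analysed here. Members summed to 126 counts or more. The authors' fold changes and p-values served as an alternative only.

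The tests on counts used edgeR 4.0.16 under R 4.3.3: filterByExpr (18877 genes kept), TMM factors, a robust quasi-likelihood fit of genotype over the 12 libraries together, without covariates, and Benjamini-Hochberg adjustment over all genes tested. Each fold is a ratio of mean CPM computed from the deposited counts, and each log2 change comes from the fit. Standard errors were taken as the size of the log2 change over the root of the F statistic, and SDs are over 3 libraries (n = 3). Members, gene lists and tests were chosen with earlier results of these data known. Named genes were members of well known function, up to 5 called members per comparison and direction with the largest changes and separate libraries, members around EDS1, and the 3 most and least abundant per length. Others are named to account for the members, except that values of 1 member are counted with the rest and not reported here by name. Loci were matched by code to RefSeq annotation of TAIR10.1, from which sequences, coordinates and exon lengths come (18777 of 18884 codes found, all 36 members), and proteins were compared with blastp 2.17.0. The fitting step was tested on simulated data.

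Deviations of libraries with the same replicate number correlated above 0.1 in all 3 pairs only for the sid2-1 line with Col-0 (0.172, 0.22 and 0.309). The eds1-2 line with TPR1-GFP gave 0.356, 0.355 and -0.0527. Of the 12 libraries 7 were closest, among the other genotypes, to one of the same number. These values leave a pairing by replicate number uncertain. The labels number replicates and do not say that a number marks a shared experiment. Between replicates the chi-square over its degrees of freedom was 6.61 to 37.8, so none is a copy. Alternatives were upper-quartile or no scaling, DESeq2 1.42.0, no filter or a filter of 1 CPM in 3 libraries, a replicate block, only the 2 groups compared, leaving out each library, and leaving out members near EDS1 or with an identical copy.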

Additional observations from a re-analysis of the deposited data

How the results depend on the processing

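The number of members called in TPR1-GFP against Col-0, in the eds1-2 line against TPR1-GFP and over the 4 genotypes stayed within 1.5 times the reported count under every alternative run. Fits that each left out 1 library gave 22 to 30, 16 to 26 and 25 to 30 calls there. They gave 2 to 11 in the sid2-1 line against TPR1-GFP, 5 to 13 in the sid2-1 line against the eds1-2 line, 4 to 9 in the eds1-2 line against Col-0 and 10 to 17 in the sid2-1 line against Col-0. In the sid2-1 line against TPR1-GFP, 2 calls were left without TPR1-GFP replicate 2 or 3, 3 without sid2-1 replicate 1 or 2, and 5 without sid2-1 replicate 3. In the sid2-1 line against the eds1-2 line 5 were left without eds1-2 replicate 1. Such fits have fewer samples. With only the 2 groups in the fit, 3 members were called in the eds1-2 line against Col-0 in place of 6. With library totals as the only scaling, 20 were called in the sid2-1 line against Col-0 in place of 13, and the median of all genes moved by 0.17 in that comparison, 0.26 in TPR1-GFP against Col-0 and -0.20 in the eds1-2 line against TPR1-GFP. With library totals alone 72.9% of all calls in TPR1-GFP against Col-0 were higher (TMM 51%, upper quartile 44.2%), 38.1% in the sid2-1 line against TPR1-GFP (TMM 57.6%, upper quartile 62.9%), 70% in the sid2-1 line against the eds1-2 line (TMM 56.7%, upper quartile 43.2%), 70.8% in the eds1-2 line against Col-0 (TMM 54.2%) and 76.5% in the sid2-1 line against Col-0 (TMM 52.6%). No called value of a named member changed sign under these settings.

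With the replicate number as a block, 29, 22, 6, 9, 5 and 13 members were called in the 6 comparisons in the order of the report, and 28 over the 4 genotypes. In the sid2-1 line against Col-0, the 1 comparison with a pairing, the count was 13 with and without the block. The authors' deposited table called 28 members higher and 1 lower in TPR1-GFP, 1 and 26 in the eds1-2 line and 0 and 9 in the sid2-1 line against TPR1-GFP. Members below 1 CPM, such as AT1G58390 and AT4G27220 in Col-0, rest on few counts, which limits the precision of their changes.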
